A study of Homo sapiens with 35 samples.

Results

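Chromosome 6 was followed bin by bin through 32 single cells in which DNA near the nuclear lamina had been marked. All 100-kb bins of chromosome 6 with a value in every cell were taken, and the short arm was read up to the start of the centromere gap and the long arm from its end. This gave 1680 of the 26584 used bins of the table (6.32%), 587 on the short arm and 1093 on the long arm. The table lists 1712 bins for the chromosome. Of the 32 without a value, 30 make up the gap (chr6:58800001-61800000, hg19, counted from 1), and the others are the first bin and the last, partial one.

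The cells are clone 5-5 of KBM7, an established human leukaemia cell line, and the labels give them as diploid (2N). All carried a fusion of Dam, a bacterial adenine methylase, to lamin B1, and all were treated with 0.5 nM Shield1 for 15 h, which switches the methylase on by stabilising the fusion protein. Sorting took single cells from the 2% of smallest size that carried both Fucci markers, which report the cell-cycle phase. There is 1 group, from 1 clone, with no cells carrying unfused Dam and no second condition in the table, so regions were compared within the same cells. The labels do not say that the cells came from separate cultures, and p-values measure the spread between these cells only.

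The nuclear lamina is a meshwork of lamin filaments under the inner nuclear membrane. Long stretches of chromatin touch it, and such lamina-associated domains are typically poor in genes and low in transcription, while gene-rich, active chromatin tends to lie in the nuclear interior. In DamID, DNA that comes close to the lamin fusion gains methyl groups at GATC sites, and these are read by DpnI digestion, amplification and sequencing. Chromosome 6 is known for the major histocompatibility complex (MHC), a dense cluster of immune genes on its short arm, and for long gene-poor tracts on its long arm.

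The table gives observed over expected reads (OE) per bin and cell. An OE of 1 or more was called a contact. Each cell has 2 copies of the chromosome and 15 h of methylation, so a contact can come from either copy and from any time in that period. For a cell, the contact share is the percentage of bins in contact; for a bin, the contact frequency is the percentage of cells with a contact there. Recovered reads ranged from 985 to 258225 per cell, of which 77 to 19791 lay on chromosome 6. Cells 13, 15 and 17 had only 985, 1221 and 1755 reads. In them a single read was enough for a contact, and their chromosome 6 shares of 4.29 to 6.90% lie far below those of the 29 deeper cells (21.0 to 44.0%). Results are given for all 32 cells and, where the 3 shallow cells weigh on them, for the deeper 29. Intervals and limits below are over cells and cover counting error only. They leave out the depth of the cells and any dependence between cells of 1 clone. Amplified reads are also not independent molecules.

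Since the marks are read at GATC sites, RefSeq promoter sequences of landmark genes are shown with these sites in capitals. Each runs from 250 bases before to 50 bases after the gene's start, on the gene's own strand, in build GRCh38.p14. They were matched by symbol, because no hg19 sequence was used here, and they serve to show the letters that the method depends on. The first gene lies in a contacted stretch of the short arm, the second in a contacted stretch of the long arm, and the third in the longest stretch that no cell had in contact.
BMP5, minus strand: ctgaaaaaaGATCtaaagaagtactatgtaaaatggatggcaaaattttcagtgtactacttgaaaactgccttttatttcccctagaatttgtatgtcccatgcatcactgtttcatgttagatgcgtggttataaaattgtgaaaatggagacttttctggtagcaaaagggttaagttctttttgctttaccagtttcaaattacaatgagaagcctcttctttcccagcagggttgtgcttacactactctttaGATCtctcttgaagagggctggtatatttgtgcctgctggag
TRDN, minus strand: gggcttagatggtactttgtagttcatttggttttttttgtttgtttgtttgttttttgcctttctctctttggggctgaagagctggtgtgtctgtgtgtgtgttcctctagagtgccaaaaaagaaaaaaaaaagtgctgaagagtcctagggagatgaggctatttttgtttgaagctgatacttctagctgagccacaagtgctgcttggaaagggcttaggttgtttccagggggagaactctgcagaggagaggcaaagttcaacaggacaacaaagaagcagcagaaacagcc
CDKN1A, plus strand: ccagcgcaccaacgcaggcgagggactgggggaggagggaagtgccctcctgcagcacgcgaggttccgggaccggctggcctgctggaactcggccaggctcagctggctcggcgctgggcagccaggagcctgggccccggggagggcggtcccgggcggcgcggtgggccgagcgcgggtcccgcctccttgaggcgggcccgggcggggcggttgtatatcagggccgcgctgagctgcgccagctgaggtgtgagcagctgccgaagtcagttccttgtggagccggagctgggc

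The BMP5 promoter holds 2 GATC sites and is 37.3% G and C, the TRDN promoter holds none and is 43.7% G and C, and the CDKN1A promoter holds none and is 74.3% G and C. GATC reads the same on both strands. Of the landmark genes named below, 3 of 9 in contacted stretches and 5 of 13 in never-contacted stretches have the site in this window, where 41.7% of 35116 RefSeq promoters of the same length have it. These genes were picked by hand, and a 300-base window says nothing on the other sites of a 100-kb bin.

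Chromosome 6 contacted the lamina more than the other used chromosomes did in most cells, with its long arm above and its short arm below the other chromosomes. The chromosome 6 share ran from 4.29% through a median of 33.3% to 44.0%, against 3.46% through 26.2% to 35.5% for all other used bins of the same cells. The means were 31.9% ± 10.6 on chromosome 6 and 25.9% ± 7.98 elsewhere (SD, n = 32), a difference of 5.99 ± 5.10 percentage points. It was higher on chromosome 6 in 28 of 32 cells (two-sided sign-flip permutation test over cells, adjusted p = 1.57e-05 over 11 tests; the unadjusted 1e-05 is the smallest that 100000 resamples can give). The 4 cells with a lower share on chromosome 6 were cells 21, 23, 26 and 27, and cell 23 stood lowest at 6.08 points below the other chromosomes (21.0% against 27.1%). Cell 19 stood highest, with 41.3% on chromosome 6 against 25.4% elsewhere.

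The long arm was in contact in 5.22 to 57.4% of its bins (median 42.8%), against 1.87 to 30.0% (median 17.5%) for the short arm. It was the higher arm in 32 of 32 cells, with a mean of 39.7% ± 13.0 on the long arm and 17.4% ± 7.31 on the short arm and a difference of 22.3 ± 8.51 points (SD, n = 32; same test, adjusted p = 1.57e-05). The gap between the arms was widest in cell 20 (57.4% on the long arm, 19.3% on the short arm) and, among the deeper cells, narrowest in cell 5 (27.4% and 19.9%). Against the other chromosomes, the long arm was higher in 32 of 32 cells, by 13.8 ± 6.81 points, and the short arm was lower in 30 of 32, by a mean difference of -8.55 ± 5.94 points (adjusted p = 1.57e-05 for each). The 2 cells with a short-arm share above that of the other chromosomes were cell 19 (30.0% against 25.4%) and cell 35 (26.6% against 24.9%). Without the shallow cells the shares were 43.1% ± 7.92 on the long arm, 18.9% ± 5.85 on the short arm and 28.2% ± 3.97 on the other chromosomes (SD, n = 29).

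**Figure D1:**
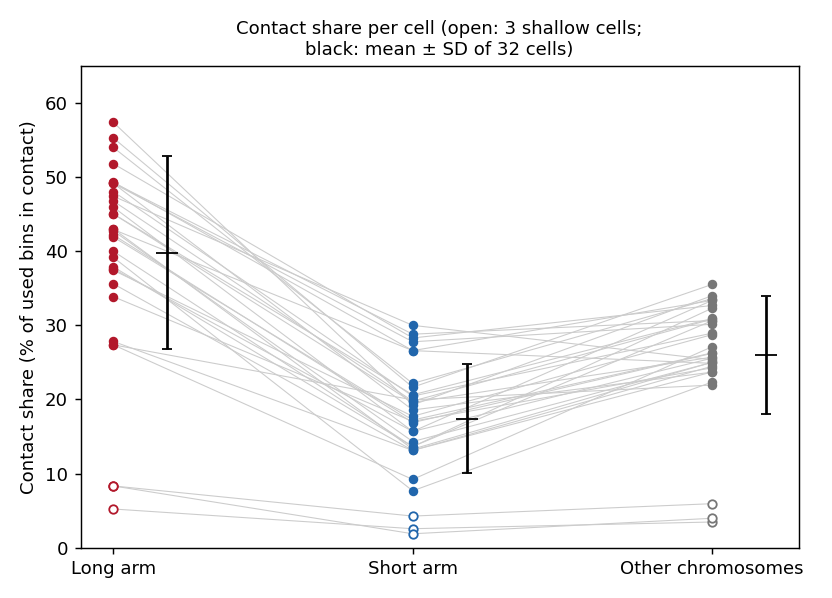
Contact share (percent of used bins in contact) of each cell on the chromosome 6 long arm, the short arm and all other chromosomes. Grey lines join the values of 1 cell, open points are the 3 shallow cells, and black marks give mean ± SD over 32 cells; every line falls between the long arm and the short arm.

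The same split was seen in the OE itself, which does not depend on the contact limit. Mean OE was 1.39 ± 0.263 on the long arm (0.806 to 1.98) and 0.601 ± 0.217 on the short arm (0.234 to 1.12; SD, n = 32), again higher on the long arm in 32 of 32 cells (difference 0.792 ± 0.315, sign-flip permutation test, adjusted p = 1.57e-05). Over the whole chromosome the mean OE was 1.12 ± 0.197, against 0.923 ± 0.0313 elsewhere, with 25 of 32 cells higher on chromosome 6 (adjusted p = 4.12e-05). It ranged from 0.615 in cell 23 to 1.51 in cell 19.

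Among the neighbours in number, chromosome 6 stood well above chromosome 7 and was not told apart from chromosome 5. The share was 31.9% ± 10.6 on chromosome 6 and 20.7% ± 8.01 on chromosome 7, higher on chromosome 6 in 31 of 32 cells (difference 11.3 ± 7.67 points, sign-flip permutation test, adjusted p = 1.57e-05). Chromosome 5 had 34.6% ± 11.1, and chromosome 6 minus chromosome 5 was -2.63 ± 8.05 points, with 13 cells higher on chromosome 6 and 19 lower (adjusted p = 0.0822). That call depended on the contact limit: the difference was -3.02 points at an OE limit of 0.5 (adjusted p = 0.0252) and -3.27 points where any read counted (adjusted p = 0.00638). Among the 22 chromosomes of the table, chromosome 6 ranked 7 in mean share and 7 in mean OE. Its OE varied little from cell to cell, with a coefficient of variation of 18.4% over the 29 deeper cells, rank 20 of 22, beside 24.6% on chromosome 5 and 27.4% on chromosome 7. Chromosomes with few bins also average over less sequence, so these ranks are a description.

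Per bin, chromosome 6 ranged from bins that most cells had in contact to bins that none had, with many in between. No cell had contact in 598 of the 1680 bins (35.6%), and at least 80% of the cells had it in 184 (11.0%). Between these, 277 bins (16.5%) were in contact in some but under 20% of the cells. The largest class, 621 bins (37.0%), was in contact in 20% to under 80%. That order depended on the shallow cells. Over the 29 deeper cells this class held 524 bins (31.2%), and bins never in contact were the largest class with 602 (35.8%). On the long arm 271 of 1093 bins (24.8%) were never in contact and 166 (15.2%) reached 80%, and on the short arm 327 of 587 (55.7%) were never in contact and 18 (3.07%) reached 80%. In the 24904 used bins of the other chromosomes, the shares were 42.4% and 8.26%; chromosome 8 was not analysed here. The shallow cells can hardly reach a given bin, and over the 29 deeper cells 311 bins (18.5%) reached 80%, 270 on the long arm and 41 on the short arm. On the other chromosomes 3463 of 24904 bins (13.9%) reached it in these 29 cells. With 3 counts as the limit that a count of 0 allows, 0 of 32 cells leaves a frequency of up to 9.38% for a single bin, and 0 of the 29 deeper cells up to 10.3%.

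The number of cells in contact was also tested per bin against the contact shares of the cells, which give 8.42 cells per bin on average. By the exact Poisson-binomial test (two-sided, adjusted over 26584 bins), 30.3% of all used bins were in contact more often (15 or more cells) and 54.5% less often (3 or fewer). On chromosome 6, 633 bins (37.7%) were called more often and 782 (46.5%) less often, shares that lie above and below those backgrounds. The long arm held 518 of the bins called more often (47.4% of the arm) and the short arm 115 (19.6%). For bins called less often the order was turned, with 386 on the long arm (35.3%) and 396 on the short arm (67.5%). The test treats the cells as independent and the bins one by one, while neighbouring bins share contacts.

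**Figure D2:**
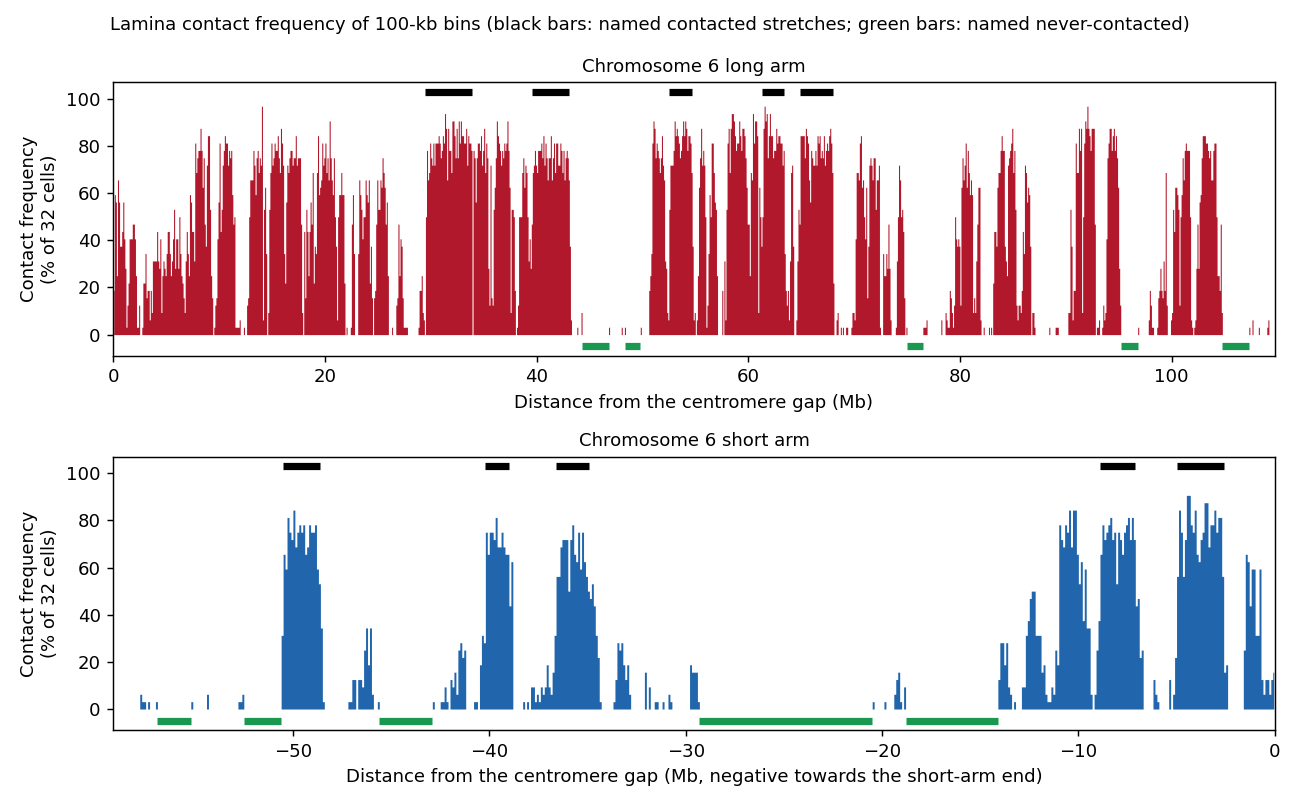
Contact frequency (percent of 32 cells) of every used bin, drawn by distance in Mb from the centromere gap, for the long arm (top) and the short arm (bottom). Black bars mark the 5 longest stretches per arm at 50% or more and green bars the 5 longest never in contact; the widest green bar is the 8.8-Mb stretch with the MHC.

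The profile was read in stretches of adjacent bins, and the stretches below were picked by length from their contact frequency, so their shares are a description. The gene names are landmarks from general knowledge of the hg19 map. Their order on the chromosome was the same in the RefSeq gene table (GRCh38.p14), which was used for names, order and neighbours only. On the long arm, 62 stretches had a frequency of at least 50% in every bin and covered 49.9 Mb, and 20 of them were 1 Mb or longer. The short arm had 13, covering 11.2 Mb, of which 6 were 1 Mb or longer.

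The longest contacted stretch of the chromosome was chr6:91300001-95700000 on the long arm, 4.4 Mb around EPHA7, which encodes an ephrin receptor of the developing nervous system. Its 44 bins were in contact for 79.8% ± 25.8 of the stretch per cell (lowest 11.4%, median 90.9%, highest 100%; SD, n = 32), with a mean OE of 2.83 ± 1.18. Among the deeper cells the lowest were cell 5 (40.9%) and cell 3 (45.5%), and 6 cells had all 44 bins in contact.

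The next was chr6:101400001-104900000, 3.5 Mb with GRIK2, a subunit of kainate-type glutamate receptors. In the gene table no other protein-coding gene stands between its neighbours ASCC3 and HACE1. The share per cell was 75.0% ± 32.9 (2.86%, median 90.0%, 100%) and the mean OE 2.81 ± 1.66. Here 4 deeper cells stood apart at the low end, 14.3% in cell 25, 20.0% in cell 23, 22.9% in cell 7 and a share below 50% in cell 5, while the other 25 had at least 68.6%.

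Further out on the arm lay chr6:126700001-129800000, 3.1 Mb with PTPRK, a receptor tyrosine phosphatase, and its neighbour LAMA2, the laminin chain of muscle basement membrane. Its share was 78.3% ± 29.9 (6.45%, median 93.5%, 100%), and among the deeper cells its lowest was 32.3%. Toward the centromere from it, chr6:123100001-125200000 holds the adjacent genes TRDN, a protein of the calcium store of muscle, and NKAIN2, a membrane protein named for its interaction with the sodium pump. It was the stretch with the highest mean share of the 10, 82.0% ± 27.2 (9.52%, median 95.2%, 100%), and the highest mean OE, 3.37 ± 1.23. Among the deeper cells its lowest share was 33.3%. The fifth long-arm stretch, chr6:114300001-116500000 with the heparan sulphate sulphotransferase HS3ST5, had a share of 80.1% ± 28.8 (9.09%, median 93.2%, 100%). Its lowest deeper cells were cell 23 (13.6%) and cell 5 (27.3%).

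The 5 named contacted stretches of the short arm were 1.2 to 2.4 Mb long, against 2.1 to 4.4 Mb on the long arm. Their mean OE was 2.12 to 2.71 against 2.81 to 3.37. They are the longest of 13 and of 62 stretches, so these lengths do not stand for the arms. Over all stretches the median length was 0.2 Mb on the short arm and 0.6 Mb on the long arm. Over the 29 deeper cells the order was turned, with 0.75 and 0.6 Mb. The longest of the short arm, chr6:53800001-56200000, lies near the centromere with BMP5, a bone morphogenetic protein, and had a share of 75.7% ± 27.9 (4.17%, median 85.4%, 100%). Beside it, chr6:49900001-51700000 holds TFAP2B, a transcription factor of neural crest and kidney, with 73.4% ± 26.2 (5.56%, median 83.3%, 100%). Among the deeper cells the lowest share was 29.2% in the BMP5 stretch and 38.9% in the TFAP2B stretch. Further out lay 3 stretches for which no landmark is given. Their shares were 64.9% ± 36.2 at chr6:22200001-23900000, 71.4% ± 33.9 at chr6:18600001-19800000 and 71.9% ± 35.4 at chr6:8300001-10200000 (SD, n = 32). In each of these 3, at least 1 deeper cell had no bin in contact, which none had in the long-arm stretches. Cell 6 had 3 reads in chr6:8300001-10200000, a mean OE of 0.0406, while 9 cells had all 19 of its bins in contact.

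**Figure D3:**
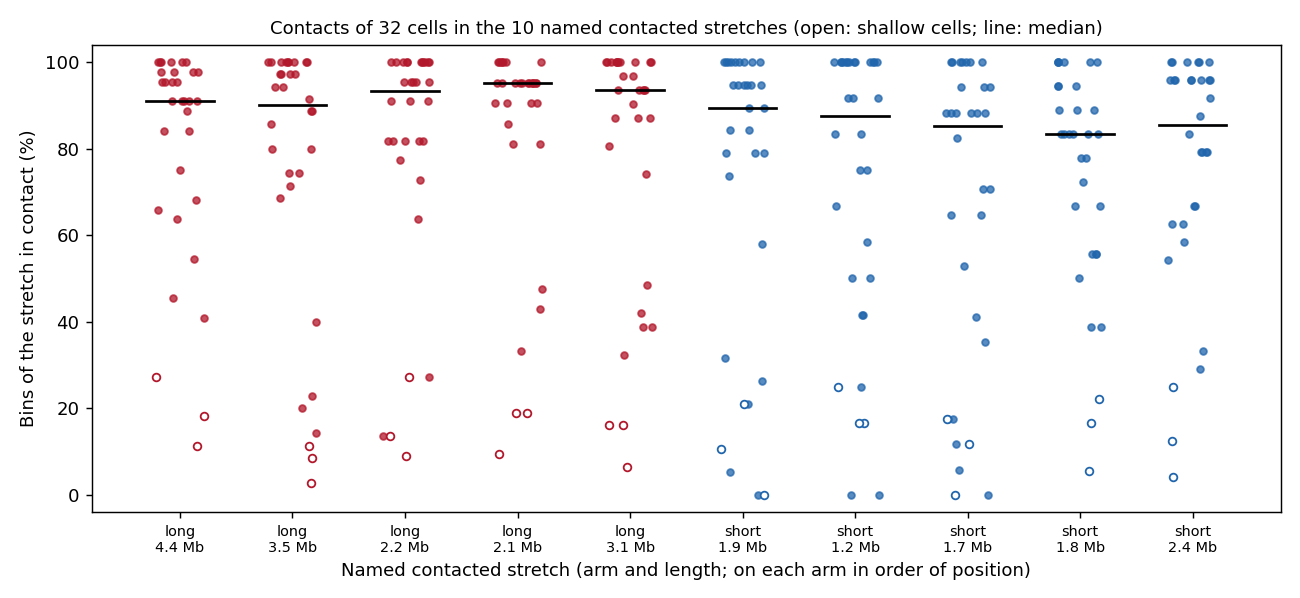
Percent of bins in contact in each of 32 cells for the 10 named contacted stretches, 5 of the long arm and then 5 of the short arm, each arm in order of position. Open points are the shallow cells and lines the medians (83.3 to 95.2%); on both arms a few deeper cells fall far below the rest.

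Some cells had under 50% of the bins in contact in stretches of 1 arm and others in stretches of both. Among the 29 deeper cells, 11 had at least 50% of the bins of all 10 stretches in contact, 21 had that for the 5 long-arm stretches and 14 for the 5 short-arm stretches. Of the 8 cells with a long-arm stretch below 50% and the 15 with a short-arm stretch below it, 5 were in both sets. Cell 5 was below 50% in 4 of the 5 long-arm stretches and in none of the short-arm ones. Cell 11 was below it in 4 of the 5 short-arm stretches and in none of the long-arm ones. Cell 23 was below it in 4 on the long arm and 2 on the short arm, and cell 25 in 3 and 1. Cells 5, 11, 23 and 25 had 85254, 83453, 116045 and 79421 reads, below the median of 126621 of the deeper cells. Cells 2 and 10 had the fewest reads of the deeper cells (40279 and 53796). Each was below 50% in 1 short-arm stretch and in no long-arm one. The part of depth in the low shares was not tested.

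Shares of different long-arm stretches varied together across cells, with a higher median correlation than pairs on the short arm. Over the 29 deeper cells, Pearson's r between 2 long-arm stretches had a median of 0.558 over 10 pairs (0.0976 to 0.725), between 2 short-arm stretches 0.225 over 10 pairs (0.0548 to 0.484), and between arms 0.233 over 25 pairs. With the share of the other chromosomes subtracted in each cell, the medians were 0.493, 0.176 and 0.165. The highest was 0.725, between the GRIK2 and HS3ST5 stretches, 9.4 Mb apart. By distance, the median r was 0.484 over 7 pairs up to 10 Mb apart and 0.261 over 13 same-arm pairs further apart. Long-arm pairs were up to 31 Mb apart and short-arm pairs up to 43.6 Mb. The part of distance in the difference between the arms was not tested. The 2 arms as a whole had r = 0.595 (Spearman's rho 0.693) over the 29 cells and 0.790 over all 32, and with the share of the other chromosomes subtracted r was 0.405 over the 29 cells and 0.114 over all 32. These points share the depth of their cells, since the chromosome 6 share itself had r = 0.618 with log10 reads over the 29 cells, and the part of depth in the stretch correlations was not tested. They are given as a description.

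**Figure D4:**
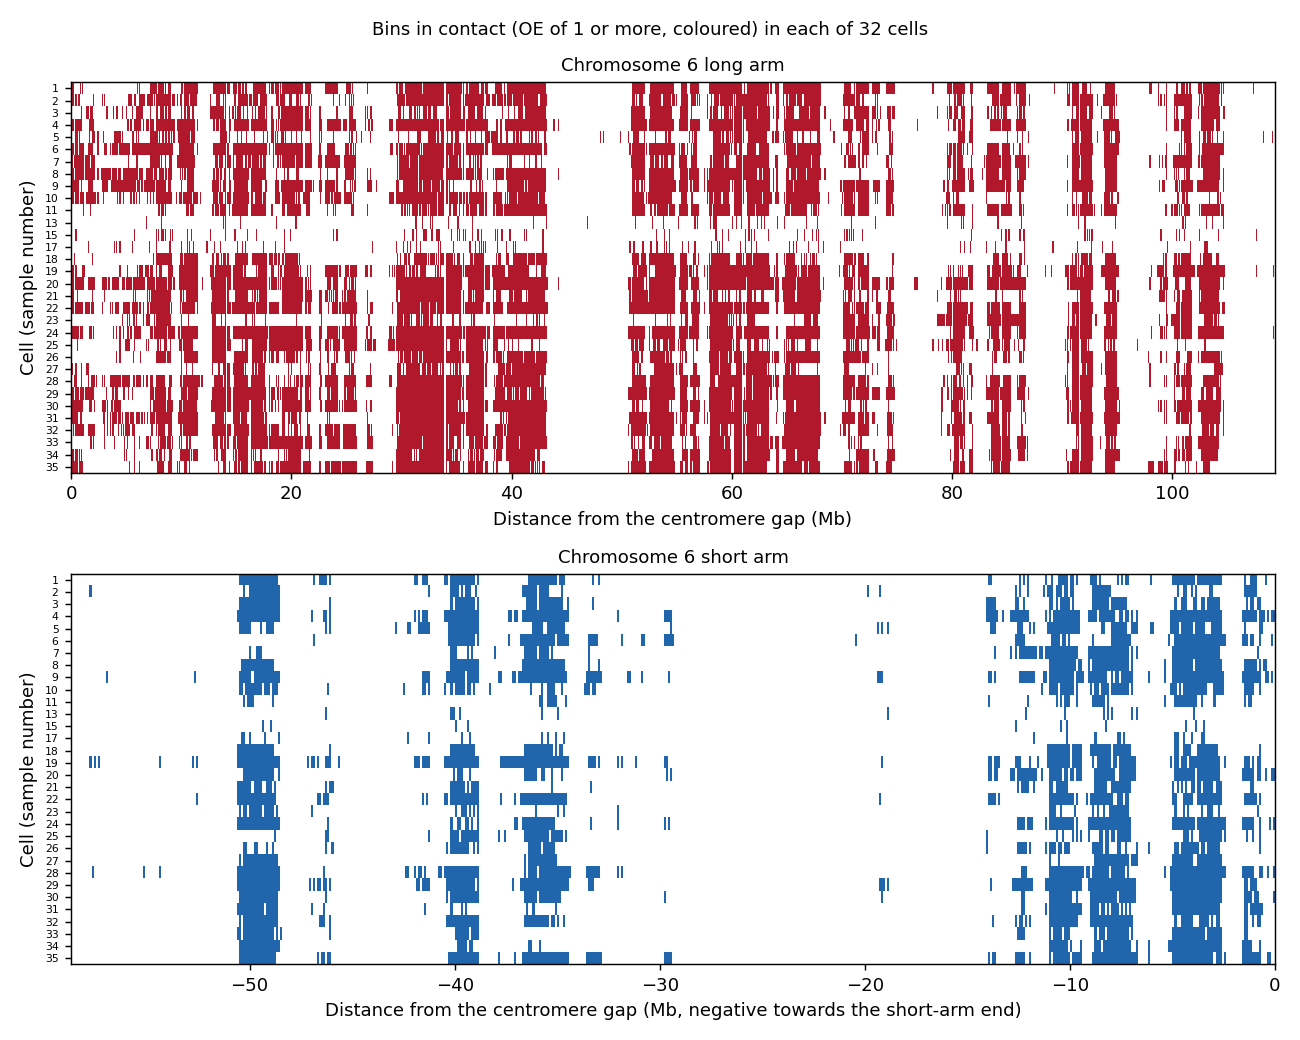
Bins in contact (coloured) in each of the 32 cells, by distance in Mb from the centromere gap, for the long arm (top) and the short arm (bottom), with cells in order of sample number. The sparse rows are the shallow cells 13, 15 and 17; the white column about 20 to 30 Mb from the gap on the short arm holds at most a few contacts in any cell.

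Within a cell, contacts came in runs of adjacent bins. The longest run on chromosome 6 was 3.33 ± 1.35 Mb per cell (0.3 to 5.6 Mb; SD, n = 32), lay on the long arm in 29 of 32 cells, and overlapped the EPHA7 stretch in 12 cells and the GRIK2 stretch in 7. The shallow cells are counted here, with longest runs of 0.3 to 0.4 Mb on the long arm, and cell 15 is among the 12. Over the 29 deeper cells the longest run was 3.64 ± 0.981 Mb (1.7 to 5.6 Mb). Runs of at least 1 Mb numbered 17.3 ± 8.03 per cell, of which 13.9 ± 6.43 were on the long arm. Over the deeper cells these numbers were 19.1 ± 6.00 and 15.3 ± 4.80 (SD, n = 29). The mean run was 478 ± 171 kb on chromosome 6 and 470 ± 156 kb elsewhere, a difference of 7.86 ± 80.3 kb with 16 cells higher and 16 lower (sign-flip permutation test, adjusted p = 0.585). This comparison moved with the contact limit, with differences of 47.3 kb at an OE limit of 0.5 (adjusted p = 0.0107) and -11.5 kb at a limit of 2 (adjusted p = 0.256).

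Edges of the contacted stretches were steep at this bin size. Over the 20 edges of the 10 stretches, the mean contact frequency was 73.3% in the 5 bins inside and 21.2% in the 5 bins outside, and single edges dropped by 21.3 to 72.5 points (median 56.6). Most of the step fell between 2 adjacent bins, with 64.1% in the first bin inside and 30.2% in the first outside. The edges were set where the frequency passes 50%, so a step there is built in and only its size is described. On the short arm the frequency went on down to 5.00% in the fifth bin outside, while on the long arm it was 31.6% there, where other contacted bins followed.

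**Figure D5:**
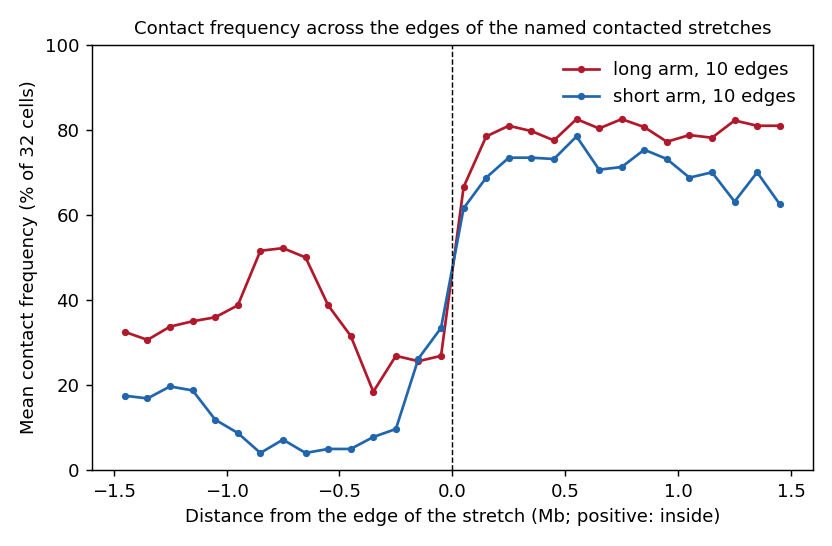
Mean contact frequency (percent of 32 cells) by distance in Mb from the edge of the named contacted stretches, positive inside, for 10 long-arm and 10 short-arm edges. The shortest short-arm stretch is 1.2 Mb long, so at larger positive distances its edges add bins past its other end. Both curves step up at the edge; 0.5 to 1 Mb outside, the long-arm curve lies above the short-arm curve.

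The longest tract without a contact in any cell was chr6:29500001-38300000 on the short arm. These 8.8 Mb run from the MHC class I region with MOG, a myelin glycoprotein, through HLA-DPB1, a class II chain that presents antigen, to CDKN1A, which encodes the cell-cycle inhibitor p21. Between MOG and CDKN1A the gene table lists 196 of the 1049 protein-coding genes of chromosome 6, 128 of them before HLA-DPB1. Over all 32 cells 262 reads were recovered in its 88 bins, with a mean OE of 0.0161 ± 0.0141 per cell (0 to 0.0492; SD, n = 32). Recovered reads are the fewest that fit the values. In bins with few reads, these counts and the expected reads drawn from them can therefore be too low. The highest value of a bin in any cell was 0.980, just under the contact limit. By contrast the 44 bins of the EPHA7 stretch had 19119 reads. The expected reads per bin, which can be recovered only where some cell has a read, were 0.990 of the median of used bins over 70 of the 88 bins of the MHC tract and 0.976 over all 44 bins of the EPHA7 stretch.

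The second was chr6:40000001-44700000, 4.7 Mb with CCND3, a D-type cyclin of the cell cycle, and POLH, a DNA polymerase that copies past ultraviolet damage, with 43 protein-coding genes between them in the gene table. It had 253 reads and a mean OE of 0.0231 ± 0.0270. Further out on the short arm came chr6:13200001-15900000 with CD83, a surface protein of activated dendritic cells, and JARID2, a partner of Polycomb repressive complex 2, and chr6:6300001-8200000 with the desmosome gene DSP and BMP6. Their mean OE was 0.0211 ± 0.0236 and 0.0478 ± 0.0542. The last, chr6:1900001-3600000, had 0.0359 ± 0.0433. The 5 tracts covered 19.8 Mb of the short arm.

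The 5 longest never-contacted tracts of the long arm covered 9.5 Mb. They were 1.4 to 2.5 Mb long, against 1.7 to 8.8 Mb for the 5 of the short arm. Over the 29 deeper cells the longest on the long arm was 3.7 Mb, at chr6:106100001-109800000, and the longest on the short arm stayed at 8.8 Mb. PRDM1, a repressor that drives plasma cell differentiation, lies in chr6:106100001-108600000, which had 169 reads and a mean OE of 0.0312 ± 0.0329. It lies just beyond the GRIK2 stretch. In windows of 5 Mb, the contact share was 67.4% ± 29.1 at 100 to 105 Mb, 0.500% ± 1.14 at 105 to 110 Mb and 32.3% ± 13.0 at 110 to 115 Mb (SD, n = 32). The other tracts were chr6:166600001-169100000, chr6:157000001-158600000 with ARID1B, a subunit of a chromatin remodelling complex, chr6:136800001-138300000 with the interferon gamma receptor gene IFNGR1, and chr6:110200001-111600000 with CDK19, a kinase of the Mediator complex. Their mean OE was 0.0257 to 0.0452. All 10 tracts had 18 or more cells with reads in them, and expected reads at 0.933 to 1.12 of the median of used bins. That range leaves out bins with no read in any cell, which number 35 among the 598 never-contacted bins of the chromosome.

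The most frequent single bins were on different parts of the arms. On the long arm chr6:75800001-75900000 was in contact in 31 of 32 cells (96.9%, exact 95% interval 83.8 to 99.9%), in all but the shallow cell 17, a count that 3 bins shared. On the short arm chr6:54300001-54400000, in the BMP5 stretch, was in contact in 29 of 32 cells (90.6%, 75.0 to 98.0%), tied with another bin. Of the cells without contact there, cells 13 and 15 were shallow and cell 21 had an OE of 0.995. Adjacent bins at 80% or more ran longest at chr6:94400001-95200000, chr6:124400001-125000000 and chr6:153500001-154100000, 0.6 to 0.8 Mb each, where 19 to 24 cells had every bin in contact. This depended on the shallow cells: over the 29 deeper cells the longest such stretch was 1.7 Mb, at chr6:114700001-116400000 within the HS3ST5 stretch, and 5 stretches were 1 Mb or longer, against 0 over all 32 cells.

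Stretches with similar average contact differed in how the cells shared it. In the window from 65 to 70 Mb on the long arm, which overlaps the photoreceptor gene EYS and the brain adhesion receptor gene ADGRB3, all 50 bins were in contact in at least 1 cell and 1 bin reached 80%. The share per cell ran from 0% through a median of 36.0% to 90.0% over the 29 deeper cells, with a mean of 39.2% ± 24.8, the widest spread of the 34 windows. Of these cells 2 had under 10% and 7 had over 60%. The window from 150 to 155 Mb had a mean of 35.2% ± 7.16 (20.0% through 36.0% to 48.0%), and none of the 29 cells was under 10% or over 60%. There 17 bins were never in contact and 12 reached 80%. These windows were chosen after their values were seen, and the spreads are given without a test.

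The outermost 5 Mb of each arm of chromosome 6 were almost free of contacts. In the outer 5 Mb of both arms, 98 bins, the share was 1.53% ± 2.02 (0 to 10.2%), against 33.8% ± 11.2 in the other 1582 bins, lower at the ends in 32 of 32 cells (difference -32.3 ± 10.9 points, sign-flip permutation test, adjusted p = 1.57e-05). The long-arm end had 2.49% ± 3.01 and the short-arm end 0.574% ± 1.81 (SD, n = 32), and 40 and 42 of their 49 bins each were never in contact. Further in, the window from 5 to 10 Mb on the short arm had 25.9% ± 12.8. Across the alternatives run, the difference between the ends and the rest ranged from -37.4 to -13.4 points.

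Within 5 Mb of the centromere gap the 2 arms went opposite ways. The 50 bins next to the gap on the long arm had a share of 28.4% ± 23.3, against 42.2% ± 13.6 in the arm without its flank and end. On the short arm the 50 flanking bins had 47.3% ± 19.6, against 16.0% ± 7.07 in the rest (SD, n = 32, values not tested by arm). Of those 50 bins, 24 are the BMP5 stretch (chr6:53800001-56200000), which was picked for its contact and had 75.7% ± 27.9. No share is given for the bins between that stretch and the gap alone. Pooled over both arms the flanks had 37.8% ± 19.5, against 31.6% ± 10.3 in the rest of the chromosome, higher in 20 of 32 cells (difference 6.28 ± 13.2 points, sign-flip permutation test, adjusted p = 0.0141). That pooled call was lost at an OE limit of 2 (1.83 points, adjusted p = 0.355), with flanks of 2 Mb (0.415 points, adjusted p = 0.882) and with reads thinned in the deeper cells (4.51 points, adjusted p = 0.0577). Single cells differed widely on the long-arm flank, from 0 to 78.0%.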

How the data were processed

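Lamin B1 DamID was measured in single cells of 1 group. The labels list 35 samples, of which 32 matched a column by sample number; samples 12, 14 and 16 were not analysed here. The deposited table holds ratios of observed to expected reads (OE) per 100-kb bin, per the file headers. Per the submitters' processing notes, cutadapt and Bowtie2 2.1.0 were used with hg19. For the expectation, read filters and duplicates, the method is not given in the sources used here, and accessibility or mappability enter as far as the expectation leaves them in.

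Bins with a value in every cell were used. Whole reads were recovered from the steps of the values (100% within 0.01 reads, which follows from the method). The largest step that fits was taken, so counts in bins with few reads are lower limits. Contact was an OE of 1 or more. Regions were compared within cells by two-sided sign-flip permutation tests (100000 resamples, Benjamini-Hochberg over 11 tests) and bins by an exact Poisson-binomial test adjusted over 26584 bins, at a threshold of 0.05; scripts were tested on simulated data. Stretches were named as the 5 longest per arm at 50% or more and at 0%, and the 3 longest at 80% or more, with the most frequent bin per arm. Members, stretches and landmark genes were chosen with earlier results of these data known. Alternatives were OE limits of 0.5 and 2, any read, leaving out cells or bins, thinning to 40279 reads, and edges of 2 and 10 Mb. Planned counts of genes and GATC sites per bin were not run, since the tables at hand are of another build; landmark genes and promoter sequences, all matched by symbol, were added after the data were seen. Python 3.11.15, numpy 2.4.6, pandas 2.3.3 and scipy 1.17.1 were used.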

Additional observations from a re-analysis of the deposited data

How the results depend on the processing

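Of 272 values under alternatives, 246 were labelled as unchanged. Of these, 83 were tests that kept their direction and side of the threshold. The others were 33 bin counts and all 130 stretch values, for which the label allowed wide shifts and says little. At an OE limit of 2, the share of chr6:22200001-23900000 fell from 64.9% to 40.3% under this label. Bins never in contact rose there from 598 to 755, also under this label. The arm differences, chromosome 6 against the other chromosomes and against chromosome 7, the ends and both OE results kept their calls under every alternative. At other contact limits, chromosome 6 minus chromosome 5 became -3.02 points at 0.5 and -3.27 with any read, and passed the threshold. The mean run difference passed it at 0.5 (47.3 kb) and with any read (67.9 kb), and changed sign at 2 (-11.5 kb) and without the tenth of bins with the lowest expected reads (-2.33 kb), neither past the threshold. The centromere flanks lost their call at 2 (1.83 points), with flanks of 2 Mb (0.415) and after thinning (4.51). Bins never in contact numbered 392 at 0.5 and 35 with any read. Bins at 80% or more on chromosome 6, the long arm and the short arm numbered 399, 327 and 72 at 0.5, 17, 17 and 0 at 2, 563, 461 and 102 with any read, 311, 270 and 41 without the shallow cells, and 322, 274 and 48 without the 8 cells with the fewest reads. Lower limits and fewer shallow cells raise frequencies by construction; otherwise the cause was not tested. Depth limits the shallow cells most, where 1 read gave a median OE of 13.7 to 24.9, against 0.0940 to 0.605 in the deeper cells. No paired analysis between groups of cells was possible because there is 1 group; regions were paired within cells in every sign-flip test.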
